A study of Homo sapiens with 5 samples.

Results

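The genes that hold cells out of the division cycle were examined in PC9 cells that had outlived gefitinib. The set is the 7 classical cyclin-dependent kinase (CDK) inhibitor genes CDKN1A, CDKN1B, CDKN1C, CDKN2A, CDKN2B, CDKN2C and CDKN2D, together with CCNG2 and RBL2. These 9 genes were looked up by their symbols among the 27477 genes of the authors' deposited table, and 8 have a row there. CDKN1C has no row in that table and is not analysed here. All 8 passed the filter on low values behind the authors' adjusted p, which 15223 genes have.

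PC9 is an established human lung adenocarcinoma line that depends on a mutant epidermal growth factor receptor, EGFR, and gefitinib inhibits the kinase of that receptor. Messenger RNA was sequenced from 3 libraries of parental PC9 cells and 2 libraries of drug-tolerant cells, which were kept in 50 nM gefitinib for 6 days and moved to growth medium without it for 3 days. The protocol text that gives this treatment stands on the labels of all 5 libraries, and the titles alone tell parental from drug-tolerant, so parental cells are taken here as not given the drug. All cells were grown with 10% fetal bovine serum, and both groups carry the EGFR mutation of the line. The drug-tolerant RNA was therefore taken after the drug had been removed, and not at the end of the exposure. The labels do not say whether replicates were separate cultures, so the p-values speak of the scatter of these 5 libraries, and that scatter may be technical.

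CDK inhibitors stop the kinases that drive a cell from G1 into S phase. The CIP/KIP proteins, p21 (CDKN1A), p27 (CDKN1B) and p57 (CDKN1C), bind whole cyclin-CDK complexes and act above all on CDK2. The INK4 proteins, p16 (CDKN2A), p15 (CDKN2B), p18 (CDKN2C) and p19 (CDKN2D), bind CDK4 and CDK6 and keep them from D-type cyclins. When these kinases are off, the pocket proteins RB1, RBL1 and RBL2 stay bound to E2F factors, and RBL2 (p130) is the pocket protein of the DREAM complex that silences cell cycle genes in resting cells. CCNG2 encodes cyclin G2, an unconventional cyclin that is induced in resting cells and slows the cycle. In cells with active growth factor receptors, signalling through AKT keeps FOXO factors out of the nucleus, and CDKN1B, CCNG2 and RBL2 are well known genes that FOXO factors activate.

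The promoters of 4 genes are shown because both drug-tolerant libraries lay below each parental library for these genes and for no other of the 8. Each run is the 250 bases before the transcription start in RefSeq (build GRCh38.p14), 5′ to 3′ on the strand of the gene, with GC boxes and E boxes in capitals. The runs are chr4:77156957-77157206 on the plus strand for CCNG2, chr6:36678464-36678713 on the plus strand for CDKN1A, chr12:12717118-12717367 on the plus strand for CDKN1B and chr19:10568980-10569229 on the minus strand for CDKN2D.
CCNG2: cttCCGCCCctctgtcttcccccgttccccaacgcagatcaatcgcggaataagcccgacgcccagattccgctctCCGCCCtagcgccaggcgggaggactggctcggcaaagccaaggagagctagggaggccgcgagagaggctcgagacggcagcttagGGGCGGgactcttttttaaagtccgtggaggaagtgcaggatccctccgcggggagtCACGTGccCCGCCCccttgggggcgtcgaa
CDKN1A: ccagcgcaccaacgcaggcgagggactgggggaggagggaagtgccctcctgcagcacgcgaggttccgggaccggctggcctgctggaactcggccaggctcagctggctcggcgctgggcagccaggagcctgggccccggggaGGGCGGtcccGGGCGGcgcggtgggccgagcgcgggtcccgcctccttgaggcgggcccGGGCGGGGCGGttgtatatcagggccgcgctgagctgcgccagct
CDKN1B: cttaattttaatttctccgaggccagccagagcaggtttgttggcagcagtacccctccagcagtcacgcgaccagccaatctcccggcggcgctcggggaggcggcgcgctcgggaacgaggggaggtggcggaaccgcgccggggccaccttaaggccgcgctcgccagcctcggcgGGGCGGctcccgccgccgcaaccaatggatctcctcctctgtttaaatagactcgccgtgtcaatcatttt
CDKN2D: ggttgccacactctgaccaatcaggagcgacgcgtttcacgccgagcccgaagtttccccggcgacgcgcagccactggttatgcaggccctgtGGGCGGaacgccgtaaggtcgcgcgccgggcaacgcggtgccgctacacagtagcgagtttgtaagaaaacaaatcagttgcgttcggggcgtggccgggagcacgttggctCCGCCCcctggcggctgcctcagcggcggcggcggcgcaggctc
The GC box was searched as GGGCGG on both strands, and the E box as CACGTG, which reads the same on both. CCNG2 held 4 GC boxes and 1 E box, the latter 30 bases before the start. CDKN1A held 4 GC boxes, of which those at 45 and 40 bases before the start share 1 base. CDKN2D held 2 GC boxes and CDKN1B held 1. Over all 35116 promoter runs of this length in the RefSeq table, 42.6% held a GC box and 6.34% an E box. The letters AAACAA, the insulin response core and a form of the element that FOXO factors bind, occurred in CDKN2D of these 4 and in 15.9% of all runs (both strands). Other forms of this element were not searched. None of the 4 held TTTGAA, the DREAM-associated CHR element, which occurred in 13.3% of all runs (both strands). A match of letters is a description of the sequence and not a binding site.

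Values per library were reconstructed, because the authors' deposited table gives 1 mean, 1 fold change and 1 standard error per gene. For each gene, the set of 5 whole read numbers was found that returns all 3 deposited values. A normalised read is such a read number divided by the size factor of its library, and size factors ran from 0.7888 to 1.1913. The libraries could not be matched to replicate numbers and carry letters here, a to c for parental and a to b for drug-tolerant ones. Depth was 14.2 to 21.4 M counted reads per library. The same reconstruction was run on 567 other genes, an even subset by identifier of those with a mean of 100 to 700, and gave 1 solution for 553 of them. The other 14 gave none, and they are left out of the shares below.

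Parental a stood apart from the other parental libraries. Over the 553 genes, the median absolute log2 ratio was 0.58 between parental a and b and 0.65 between parental a and c. The same measure was 0.09 between parental b and c, 0.10 between drug-tolerant a and b, and 0.18 between parental a and drug-tolerant a. Parental b and c differed by more than counting error (chi-square of 1.37 per degree of freedom over the 553 genes, where counting error alone gives about 1), and they were kept as the 2 samples that the labels give. Drug-tolerant a and b gave a chi-square of 1.485 per degree of freedom. Neither excess shows whether the libraries of a pair were separate cultures. Parental a was nearer to the drug-tolerant mean than to the mean of parental b and c in 448 of 553 genes (81%), and in 6 of the 8 genes described here. For the 8 genes, and for the called genes of the other lists, ratios are therefore given with parental a, without it and against it alone. Whether a preparation, a culture or a label sets parental a apart was not tested.

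No gene of the set reached an adjusted p under 0.05 in the authors' deposited table (DESeq2), where 84 of 15223 genes did (0.552%), 44 of them lower (0.289%) and 40 higher (0.263%). At an unadjusted p under 0.05, 3 of the 8 passed, against 10.8% of all genes tested, and no other tool was run on this comparison. In the authors' deposited table, the log2 fold change (drug-tolerant over parental) was below 0 for 6 of the 8 genes and above 0 for 2, with a median of -0.44 beside -0.02 over all genes tested. From the reconstructed reads, both drug-tolerant libraries lay below all 3 parental libraries in 4 of 8 genes, where 16.8% of the 553 genes had this order. In 2 of the 4, CDKN1A and CDKN2D, the gap from parental a to the nearer drug-tolerant library was within counting error. The opposite order was found in 0 of 8 genes, against 21% of the 553. Without parental a, the groups did not overlap in all 8 genes, 6 lower and 2 higher, but then 46.1% of the 553 genes were lower without overlap and 43.4% higher. Against parental a alone, both drug-tolerant libraries lay below it in 5 of the 8 genes, beside 36.2% of the 553, and above it in 2, beside 48.5%. Of these 2, CDKN2C lay above it by less than counting error.

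**Figure D1:**
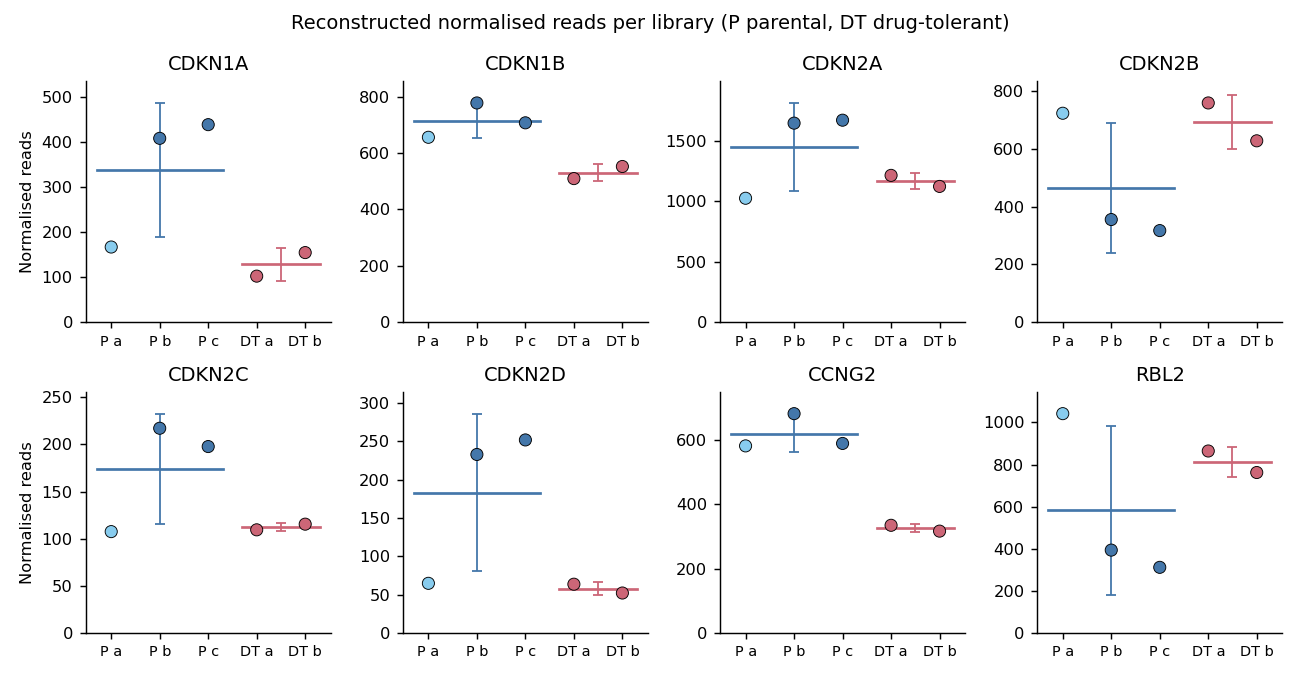
Reconstructed normalised reads (vertical axis, from 0) of each of the 8 genes by library, with parental libraries marked P (a in light blue) and drug-tolerant ones DT. Horizontal lines are group means and bars 1 SD (n = 3 and n = 2). For CCNG2 the drug-tolerant values of 335 and 317 lie well below the lowest parental value of 583, while for CDKN2D parental a, at 64.6, lies beside the drug-tolerant value of 63.5.

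The clearest difference was in CCNG2, cyclin G2 (ENSG00000138764, chromosome 4, 77157151 to 77433388, GRCh38). It had 583 normalised reads in parental a, 683 in parental b and 590 in parental c. Drug-tolerant a had 335 and drug-tolerant b had 317. All 3 parental libraries, parental a included, lay close together and far above both drug-tolerant libraries. The mean was 619 ± 55.9 (SD, n = 3) in parental and 326 ± 12.8 (SD, n = 2) in drug-tolerant cells, 1.90-fold higher in parental cells. The authors' deposited table gives a log2 fold change of -0.84 ± 0.23 (SE; 95% interval -1.30 to -0.39) and an adjusted p of 0.0514 (DESeq2), just above the threshold of 0.05. Among all genes with a p-value in the authors' deposited table it ranked 86. Adjusted over the 11777 genes with a mean of at least 50, its adjusted p was 0.0443, and over all 27476 genes with a p-value it was 0.0928 (both Benjamini-Hochberg on the authors' DESeq2 p-values). Over the genes with a mean of at least 10 it was 0.0505. With the authors' DESeq2 score centred and divided by its robust SD over all genes tested, the adjusted p of CCNG2 was 0.971, and 1 gene in all passed 0.05.

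CCNG2 was also the gene of the set that depended least on the choice of parental library. The log2 ratio of mean normalised reads was -0.92 with all libraries, -0.97 without parental a and -0.84 against parental a alone. A log2 ratio against parental a as low as this was found in 1.45% of the 553 genes.

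Among the CIP/KIP genes, CDKN1A encodes p21, an inhibitor induced by DNA damage (ENSG00000124762, chromosome 6, 36676460 to 36687339, GRCh38). It had 167 normalised reads in parental a, 409 in parental b and 439 in parental c. Drug-tolerant a had 102 and drug-tolerant b had 155. The groups did not overlap, but parental a lay just above drug-tolerant b and far below parental b and c. The exact Poisson 95% interval (counting error only) was 145 to 192 in parental a and 128 to 185 in drug-tolerant b, so this gap was within counting error. In drug-tolerant a the interval was 84.5 to 123, below that of parental a. The mean was 338 ± 149 (SD, n = 3) in parental and 128 ± 37.0 (SD, n = 2) in drug-tolerant cells. The authors' deposited table gives a log2 fold change of -1.01 ± 0.36 (SE) with an adjusted p of 0.267 (DESeq2). The log2 ratio of mean normalised reads was -1.40 with all libraries, -1.72 without parental a and -0.38 against parental a alone. The difference in CDKN1A was thus much smaller against parental a alone than against parental b and c. Ratios against parental a of -0.38 or below were found in 8.68% of the 553 genes.

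CDKN1B encodes p27, an inhibitor whose protein is largely set by its breakdown (ENSG00000111276, chromosome 12, 12715058 to 12722371, GRCh38). Its parental libraries had 656, 778 and 708 normalised reads in a, b and c. Those of drug-tolerant a and b were 510 and 553. The 3 parental values lay together above both drug-tolerant values, by a smaller margin than in CCNG2. The mean was 714 ± 61.2 (SD, n = 3) in parental and 531 ± 30.4 (SD, n = 2) in drug-tolerant cells, 1.34-fold higher in parental cells. The authors' deposited table gives -0.39 ± 0.23 (SE) on the log2 scale with an adjusted p of 0.495 (DESeq2), and its 95% interval runs from -0.84 to 0.06. The log2 ratio of mean normalised reads was -0.43 with all libraries, -0.48 without parental a and -0.31 against parental a alone.

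**Figure D2:**
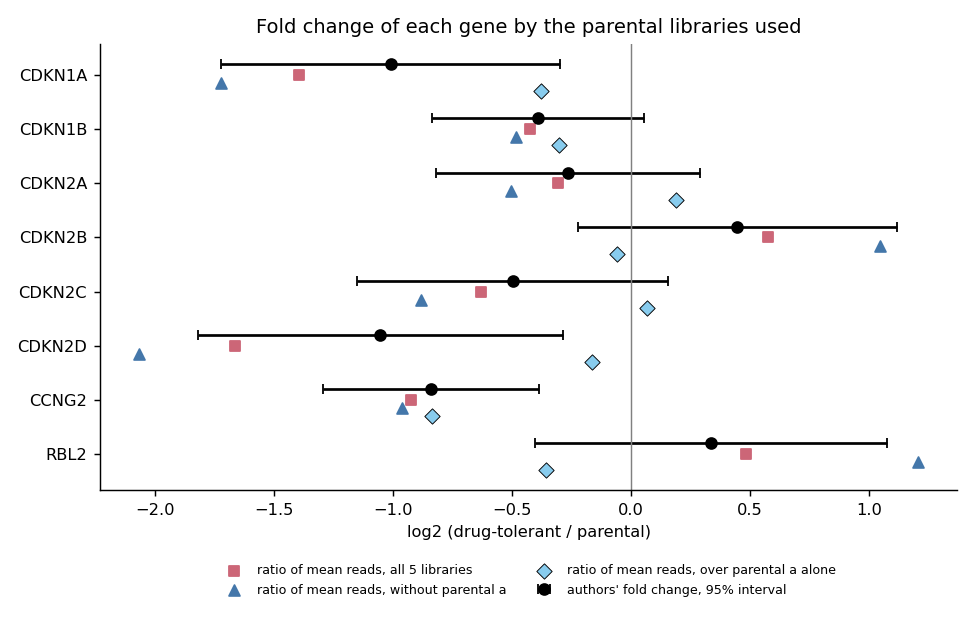
Log2 ratio of drug-tolerant over parental level (horizontal axis) for each of the 8 genes. Black points are the authors' moderated fold changes with 95% intervals, squares the ratios of mean reconstructed reads over all 5 libraries, triangles those without parental a and diamonds those against parental a alone. CCNG2 holds between -0.97 and -0.84 in all 4, while CDKN2A, CDKN2B, CDKN2C and RBL2 cross 0 when parental a stands alone. CDKN2B crosses only to -0.06 and CDKN2C only to 0.06.

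The 4 INK4 genes differed in direction among themselves. CDKN2A encodes p16 and, from another reading frame, ARF, and its row counts both (ENSG00000147889, chromosome 9, 21967753 to 21995301, GRCh38). It had 1024 normalised reads in parental a, 1645 in parental b and 1670 in parental c, and 1213 and 1122 in drug-tolerant a and b. Both drug-tolerant libraries were above parental a and below parental b and c. The authors' deposited table gives -0.27 ± 0.28 (SE) on the log2 scale with an adjusted p of 0.648 (DESeq2). The log2 ratio of mean normalised reads was -0.31 with all libraries, -0.51 without parental a and 0.19 against parental a alone. Per kilobase of its longest annotated transcript, CDKN2A had the highest mean level of the 8 genes in the authors' deposited table, 1040, and CDKN1B came next with 241. CDKN2C had the lowest, 51.5.

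CDKN2B encodes p15, the INK4 protein that TGF-beta induces, and lies beside CDKN2A (ENSG00000147883, chromosome 9, 22002903 to 22009363, GRCh38). It had 724 normalised reads in parental a, 356 in parental b and 317 in parental c. Drug-tolerant a had 760 and drug-tolerant b had 629. Parental a lay between the drug-tolerant libraries, and parental b and c lay far below them. The authors' deposited table gives 0.45 ± 0.34 (SE) on the log2 scale with an adjusted p of 0.551 (DESeq2). With all libraries the log2 ratio of mean normalised reads was 0.58, and it was 1.04 without parental a and -0.06 against parental a alone. The neighbours CDKN2A and CDKN2B thus had opposite signs against parental b and c. Against parental a CDKN2B had no clear direction, since the drug-tolerant libraries lay on either side of parental a. CDKN2B-AS1, an antisense RNA at this locus named here after its values were seen, had a mean of 10.5 in the authors' deposited table, 1.89% of that of CDKN2B. The library kit keeps strand, but whether the counting used it is not given in the sources used here, so reads of the antisense partner cannot be told apart.

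CDKN2C encodes p18 (ENSG00000123080, chromosome 1, 50960745 to 50974633, GRCh38). It had 107 normalised reads in parental a, 217 in parental b and 198 in parental c, and 109 and 115 in drug-tolerant a and b. Parental a lay just below both drug-tolerant libraries. The authors' deposited table gives -0.50 ± 0.33 (SE) on the log2 scale with an adjusted p of 0.517 (DESeq2). With all libraries the log2 ratio of mean normalised reads was -0.63, and it was -0.88 without parental a and 0.06 against parental a alone.

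CDKN2D encodes p19, the remaining INK4 protein (ENSG00000129355, chromosome 19, 10566462 to 10569059, GRCh38). It had 64.6 normalised reads in parental a, 233 in parental b and 252 in parental c. Drug-tolerant a had 63.5 and drug-tolerant b had 52.0. Both drug-tolerant libraries lay below parental a, but by less than counting error. The exact Poisson 95% interval was 51.0 to 80.8 in parental a and 49.7 to 80.0 in drug-tolerant a, and it covers counting error only. The authors' deposited table gives -1.06 ± 0.39 (SE) on the log2 scale, the lowest fold change of the set, with an adjusted p of 0.296 (DESeq2). The log2 ratio of mean normalised reads was -1.67 with all libraries, -2.07 without parental a and -0.16 against parental a alone. A ratio as low as -1.67 over all libraries was found in 0.362% of the 553 genes, and one as low as -0.16 against parental a in 23.5%.

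RBL2, the p130 pocket protein of DREAM (ENSG00000103479, chromosome 16, 53433977 to 53491649, GRCh38), had 1042 normalised reads in parental a, 393 in parental b and 311 in parental c. Drug-tolerant a had 864 and drug-tolerant b had 762. Parental a was the highest of the 5 libraries, and the drug-tolerant libraries lay between it and the others. The parental mean of 582 ± 400 (SD, n = 3) thus averages libraries that lie far apart. The authors' deposited table gives 0.34 ± 0.38 (SE) on the log2 scale with an adjusted p of 0.666 (DESeq2). With all libraries the log2 ratio of mean normalised reads was 0.48, and it was 1.21 without parental a and -0.36 against parental a alone.

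**Figure D3:**
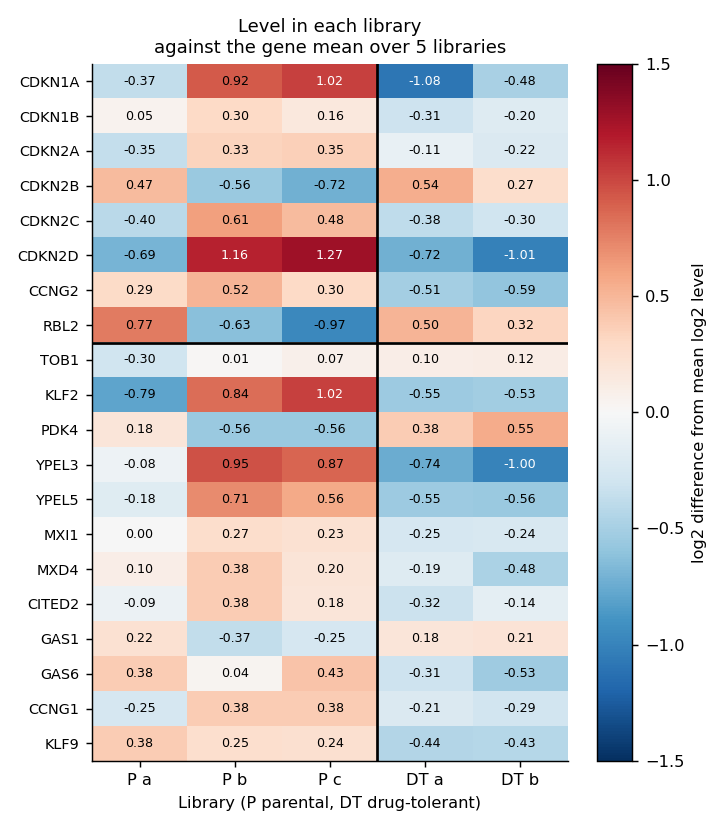
Log2 level of each gene (rows) in each library (columns) minus the mean of its 5 log2 levels. The 8 genes stand above the line and 12 other quiescence genes with reconstructed reads below it. Of the 8 genes, CCNG2 and CDKN1B are above their mean in all 3 parental libraries, while for the other 6 parental a lies on the same side of the mean as both drug-tolerant libraries.

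Fold changes in this comparison followed transcript length. Over 12469 protein-coding genes tested, Spearman's rho between the longest annotated transcript and the log2 value that the authors' deposited table gives was 0.54, given as a description across genes, which are not independent replicates. Over the 553 genes, rho of length was 0.65 with the log2 ratio of parental a over parental b and c, and -0.24 with that of drug-tolerant cells over parental a. Length thus moved with the difference of parental a from the other parental libraries, and against parental a longer genes tended to be lower. The 2 genes of the set with positive values, CDKN2B and RBL2, have transcripts of 3911 and 4906 bases, and 5 of the 6 with negative values have transcripts of 1283 to 2904 bases. CCNG2 is the exception, with the longest transcript of the set, 5526 bases, and a negative value. Genes of its length had a median log2 fold change of 0.20, so its value relative to them was -1.04 and larger in size than the deposited -0.84. After the same subtraction CDKN1A stood at -0.77, CDKN2D at -0.63, CDKN2C at -0.39 and CDKN1B at -0.23. CDKN2A turned from -0.27 to 0.22, because genes as short as it had a median of -0.49. CDKN2B stood at 0.44 and RBL2 at 0.20. The part of length in these values was not tested, and the trend was not removed from the values of the lists below.

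**Figure D4:**
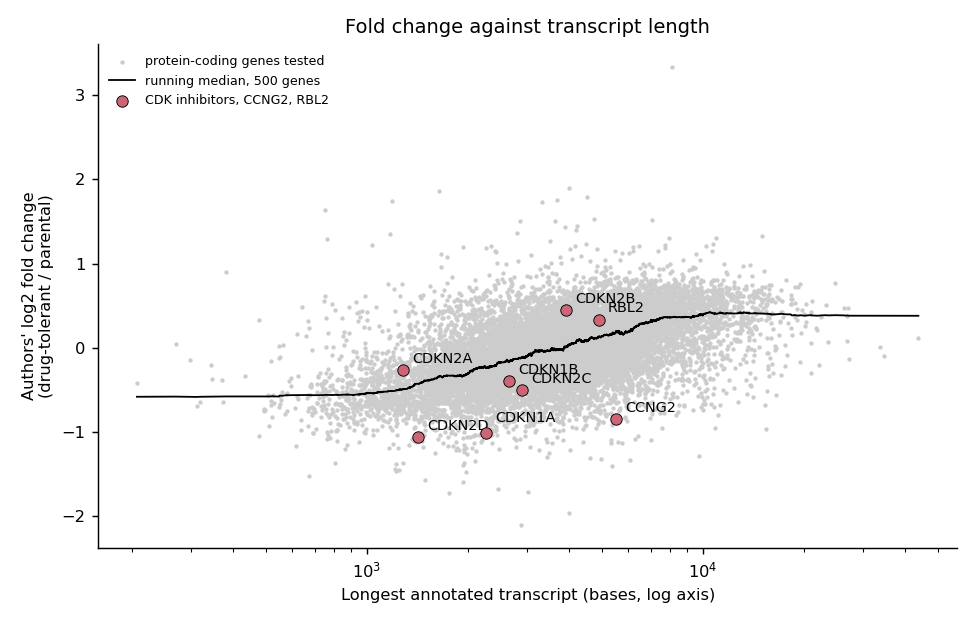
Log2 values of the authors' deposited table (vertical axis, drug-tolerant over parental) against the longest annotated transcript in bases (horizontal log axis) for 12469 protein-coding genes (grey), with the running median of 500 genes as a line. The 8 genes are in red: CCNG2, at 5526 bases and -0.84, lies far below the line, and CDKN2A, at 1283 bases and -0.27, lies above it.

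The targets of these inhibitors were examined next. Of 14 genes for G1 cyclins, CDKs and the CDK-activating kinase, 13 were tested and none was called. In the authors' deposited table their median log2 fold change was -0.09, and 10 of the 13 were negative, beside 51.6% of all genes tested. Of the 8 with reconstructed reads, 4 were lower without overlap, beside 16.8% of the 553 genes, and 0 were higher, beside 21%. CCND1, the main D-type cyclin of epithelial cells, stood at -0.01 ± 0.20 (SE) in the authors' deposited table. Of the INK4 targets, CDK4 stood at -0.50 ± 0.28 and CDK6 at 0.52 ± 0.39 in the authors' deposited table (log2, SE), and the CIP/KIP target CDK2 stood at -0.32 ± 0.23. The longest annotated transcript has 2076 bases for CDK4 and 11612 for CDK6. CDK4 had 949 normalised reads in parental a, 1547 in parental b and 1555 in parental c, and 886 and 917 in drug-tolerant a and b, so that parental a again lay beside the drug-tolerant libraries. CDK2 had 780, 979 and 912 in parental a, b and c and 696 in both drug-tolerant libraries, below all 3.

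None of the 18 pocket protein, E2F and DREAM genes was called, and their median in the authors' deposited table was 0.13. Fold changes were positive for 13 and negative for 5, where 51.6% of all genes tested were negative. Of the 15 with reconstructed reads, 5 were higher without overlap, beside 21% of the 553 genes, and 2 were lower, beside 16.8%. RB1 stood at 0.29 ± 0.28 and RBL1 (p107) at 0.42 ± 0.31 in the authors' deposited table (log2, SE). RB1 had 1112 normalised reads in parental a, 737 in b and 711 in c, and 1063 and 1086 in drug-tolerant a and b, so that parental a was highest and parental b and c lowest, as in RBL2. RBL1 differed in that both drug-tolerant libraries, at 466 and 477, lay narrowly above the 462 of parental a. Of the E2F factors, E2F1 stood at 0.02 ± 0.23 and E2F4, the partner of RBL2, at 0.12 ± 0.23 in the authors' deposited table (log2, SE). TFDP2, a dimer partner of E2F factors, had 765, 747 and 715 normalised reads in parental a, b and c and 520 and 473 in drug-tolerant a and b, with an adjusted p of 0.389 in the authors' deposited table (DESeq2). Proliferation markers had both signs. In the authors' deposited table, 8 of 18 had positive and 10 negative fold changes, none called, and MKI67 stood at 0.65 ± 0.40 (log2, SE) while PCNA stood at -0.56 ± 0.29. The longest annotated transcript has 12678 bases for MKI67 and 1359 for PCNA, and the part of length in their signs was not tested.

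Of the 13 genes of the FOXO axis, 1 was called higher, beside 0.263% of all genes tested, and none lower. Fold changes were positive for 8 and negative for 5, and their median in the authors' deposited table was 0.06. BCL6, a transcriptional repressor, rose 1.20 ± 0.31 on the log2 scale (SE), with an adjusted p of 0.0242 in the authors' deposited table (DESeq2). It had 750 normalised reads in parental a, 410 in parental b and 448 in parental c, and 1568 and 1351 in drug-tolerant a and b, above all parental libraries. Its log2 ratio of mean normalised reads was 1.45 with all libraries, 1.77 without parental a and 0.96 against parental a alone. PIK3IP1, an inhibitor of PI3 kinase, ran the other way at -0.93 ± 0.31 (log2, SE; adjusted p of 0.188, DESeq2) in the authors' deposited table. It had 107, 120 and 101 normalised reads in parental a, b and c and 58.2 and 40.6 in drug-tolerant a and b, with no overlap. FOXO3 stood at 0.24 ± 0.27 and FOXO4 at -0.46 ± 0.25 in the authors' deposited table (log2, SE).

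Of 14 other genes linked to quiescence, 1 was called lower in the authors' deposited table, beside 0.289% of all genes tested. Fold changes were negative for 11 of the 14, beside 51.6% of all genes tested, and the median was -0.43, beside -0.02, in the authors' deposited table. The called gene was YPEL3, a small protein tied to growth arrest, which fell by 1.20 on the log2 scale with an adjusted p of 0.0497 in the authors' deposited table (DESeq2). It had 248 normalised reads in parental a, 506 in parental b and 479 in parental c, and 156 and 131 in drug-tolerant a and b. Its log2 ratio of mean normalised reads was -1.52 with all libraries, -1.78 without parental a and -0.79 against parental a alone. KLF9, a Krüppel-like factor, had 321, 293 and 292 in parental a, b and c and 182 and 184 in drug-tolerant a and b. Its adjusted p was 0.284 in the authors' deposited table (DESeq2), and its 3 parental libraries lay as close together as those of CCNG2. Of the 12 genes of this list with reconstructed reads, 7 were lower without overlap, beside 16.8% of the 553 genes, and 2 were higher, beside 21%. This list was chosen with earlier results of these data known.

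**Figure D5:**
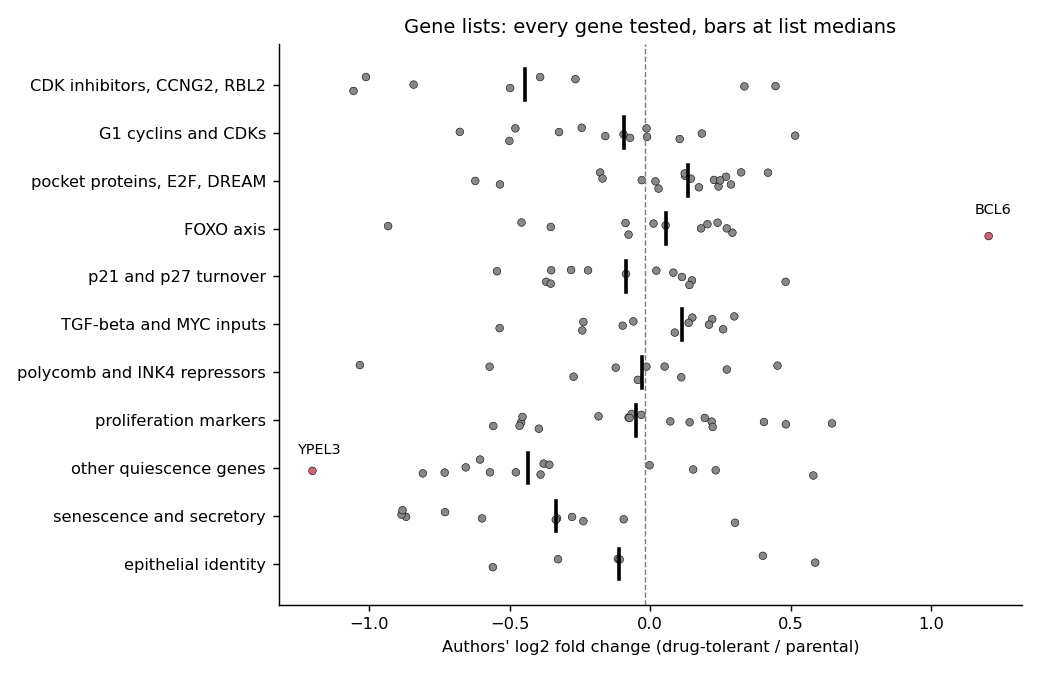
Log2 fold change in the authors' deposited table (horizontal axis) of each tested gene in 11 lists, with black bars at list medians and a dashed line at the median of all tested genes. BCL6 at 1.20 and YPEL3 at -1.20, in red, are the genes with an adjusted p under 0.05, and the 8 genes described here, in the top row, have a median of -0.44.

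The remaining lists act on the level or breakdown of the inhibitors. Of 13 genes for the turnover of p21 and p27, none was called, and SKP2, the substrate receptor that marks p27 for breakdown, stood at -0.22 ± 0.21 (log2, SE) in the authors' deposited table. None of 12 genes of the TGF-beta and MYC inputs was called. MYC, which represses CDKN1A and CDKN2B, stood at 0.15 ± 0.21, and SMAD7, a feedback target of TGF-beta, at -0.54 ± 0.25 in the authors' deposited table (log2, SE). None of 10 polycomb and other regulators of the INK4 locus was called, and CBX7, a polycomb repressor of CDKN2A, stood at -0.57 ± 0.23 in the authors' deposited table (log2, SE). CBX7 had 410, 439 and 431 normalised reads in parental a, b and c and 281 and 273 in drug-tolerant a and b, with no overlap. ID1, a repressor of CDKN2A, stood at -1.03 ± 0.37 (adjusted p of 0.272, DESeq2) in the authors' deposited table. Of the senescence and secretory genes, 11 were tested and none was called. In the authors' deposited table, fold changes were negative for 10 of them, beside 51.6% of all genes tested. Their median there was -0.34, beside -0.02. Of the 7 with reconstructed reads, 4 were lower without overlap, beside 16.8% of the 553 genes, and 1 was higher, beside 21%. CXCL8, the chemokine interleukin 8, had 212, 134 and 134 normalised reads in parental a, b and c and 70.5 and 82.4 in drug-tolerant a and b.

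All 6 epithelial markers had rows, with a mean level of 25968 for EGFR in the authors' deposited table, and none was called. Of 10 markers of fibroblasts, leukocytes and endothelium, 5 had rows, and COL1A2, DCN, LUM, PTPRC and CD3E had none. In the authors' deposited table, the mean levels were 253 for the endothelial CDH5, 162 for COL1A1, 6.61 for VWF, 2.82 for CD68 and 0.353 for PDGFRB. CDH5 had 256, 198 and 219 normalised reads in parental a, b and c and 284 and 308 in drug-tolerant a and b, higher without overlap and not called. COL1A1 had 199, 124 and 158 in parental a, b and c and 168 and 164 in drug-tolerant a and b, with overlap. The part of these markers in the results above was not tested. In bulk RNA, fewer cells with a transcript and less of it in each cell cannot be told apart.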

How the data were processed

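Messenger RNA of 3 parental and 2 drug-tolerant PC9 libraries was sequenced with a stranded kit, per the labels' protocols. FastQC, STAR, DESeq2 and build hg38 were used, per the submitters' processing notes, with no version, counter or annotation named in the sources used here. The deposited table has no values per library. In the authors' table the mean level is a signal, namely reads divided by size factors and averaged over libraries. The authors' fold changes and their errors are deposited in log2 units, moderated towards 0, the Wald score as their ratio, and the p-values with their adjusted values were deposited by the authors too. Positive values are higher in drug-tolerant cells, since 3 libraries pulled the fold change down and 2 pulled it up.

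Whole reads per library were reconstructed in Python with NumPy and Numba. Low means (under 4) fixed what 1 read adds in each library. For higher genes, the whole numbers were sought that return the deposited mean, fold change and standard error. The model was negative binomial with a shrunken group effect. A set was kept only if the dispersion it implied lay near an estimate made here from its reads. This estimate was the moderated one or the gene's own, and its moderation was fitted to the calibration genes below. The model was calibrated on 75 of 106 genes with means of 15 to 70, and it holds 1 small fitted term whose origin is not known. On 54 tables simulated from this same fitted model, 53 gave the true reads as the only solution and 0 gave wrong ones. Because the same model made and solved these tables, they cannot show whether it holds for the authors' table. Of 662 genes wanted, 644 were resolved and 18 were not. These values are inferred, whereas the deposited ones are summaries. Ratios of mean normalised reads are not shrunken and so exceed the deposited fold changes in size. No count model was fitted, because reads were not resolved for all genes, and the call is the authors' adjusted p under 0.05.

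Coordinates and transcript lengths come from GENCODE 29 and promoters from RefSeq. All 8 genes with a row matched a RefSeq promoter. The genes and lists were chosen with earlier results of these data known. Named from the other lists were called genes, up to 3 of mean 10 or more with the smallest adjusted p, and 13 fixed genes, of which 1 is not reported here, nor the list that holds it. No most similar gene is named, because there is 1 comparison. Alternatives rescaled the score or the set of genes adjusted over, removed the overall median or the length trend (500 genes), and left out each library.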

Additional observations from a re-analysis of the deposited data

How the results depend on the processing

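The count of 0 of 8 genes with an adjusted p under 0.05 stayed at 0 at a threshold of 0.01, with adjustment over all genes with a p-value, over genes with a mean of at least 10, and with the score centred and divided by its robust SD, where 1 of 15223 genes was called in all. Adjusted over genes with a mean of at least 50 it became 1, CCNG2. In the other lists 2 genes, BCL6 and YPEL3, passed 0.05 and 0 passed 0.01. Removing the length trend turned CDKN2A to 0.22 and moved CDKN2D to -0.63. Leaving out each library in turn kept the sign of the log2 ratio of mean normalised reads of all 8 genes. It ran from -0.97 to -0.85 for CCNG2, -1.73 to -1.13 for CDKN1A, -0.49 to -0.36 for CDKN1B, -0.51 to -0.19 for CDKN2A, -0.88 to -0.44 for CDKN2C, -2.07 to -1.37 for CDKN2D, 0.36 to 1.04 for CDKN2B and 0.18 to 1.21 for RBL2. Against parental a alone, an alternative added after its position was seen, the sign reversed for CDKN2A (0.19), CDKN2B (-0.061), CDKN2C (0.065) and RBL2 (-0.36). Against parental a alone, 5 genes had both drug-tolerant libraries below it and 2 had both above it, beside 36.2% and 48.5% of the 553 genes. The cause was not tested. No paired analysis was possible because the columns carry no replicate numbers and the reconstructed libraries could not be matched to them. With 2 drug-tolerant libraries and standard errors of 0.23 to 0.39 for the 8 genes, differences of the size seen in CDKN1B could not be called.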
